A study of Homo sapiens with 6 samples.

Results

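In A375 human melanoma cells, 195 of 63086 listed genes had a count in each of 3 DUS1L knockout RNA-seq libraries and none in any of 3 wild-type libraries. They were chosen by this pattern, after each estimated count was rounded to a whole number with values of 0.5 rounded up. The on and off pattern is therefore how the genes were selected and not a result, and no test is given for any of them. They are called knockout-only genes here, and a count of 0 in the wild type means only that no read was assigned at this depth. Of all listed genes, 30344 had a count in at least 1 library, and 16046 of these passed the count filter of the differential test. Of the 195 knockout-only genes, 1 passed that filter, ENSG00000284554, which passed through its knockout counts alone.

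A375 is an established line of malignant melanoma, a tumour of pigment cells. Knockout cells were edited with CRISPR/Cas9 at DUS1L, which encodes a tRNA dihydrouridine synthase, and then selected as clones, and wild-type cells were cultured alongside with no targeting. No other allele or treatment is named for either group. The 3 libraries of each genotype are described as biological replicates, but the number of knockout clones was not given in the sources used here, so a difference due to the loss of DUS1L and one that belongs to a clone cannot be told apart.

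A transcript at a few copies in a culture is sampled by few reads, and whether it is counted at all in a library is then partly a matter of sampling. Genes of other tissues, long non-coding RNAs (lncRNAs) and pseudogenes, which are copies of genes that mostly make no protein, are often found at such levels in a cell line. Where a pseudogene, a gene model spanning neighbouring genes, or a repeated gene has the sequence of another gene, reads that fit both must be divided between them by the counting program. The 195 genes hold examples of each.

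Libraries held from 17121358 to 18861530 counts. DUS1L itself stood at 80.0, 75.7 and 77.0 CPM (counts scaled to a library of 1000000) in wild-type libraries 1 to 3, against 55.4, 54.7 and 53.1 CPM in the knockout. The gene was lower in the knockout in every library (log2 fold change -0.51, SE 0.063, edgeR adjusted p = 1.69e-06) but was still counted. More genes had a count in the knockout libraries (24014, 23649 and 23431, the 195 included) than in the wild-type libraries (22826, 22976 and 22837). Genes that failed the count filter, without those counted in 1 genotype only, together measured 1378 ± 12.5 CPM in the wild type and 1591 ± 67.6 CPM in the knockout (SD, n = 3 each), 15.5% higher, with no overlap between the groups (exact permutation test, two-sided p = 0.1, the smallest that 3 against 3 allows). Among these weakly counted genes, 7466 had more counts in the knockout, 5500 had fewer and 1074 had equal counts. The part of this wider difference in the knockout-only pattern was not tested. The opposite pattern, a count in every wild-type library and none in the knockout, was found in 64 genes.

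A set of repeated genes is shown by sequence first, because identical sequence and rounding together brought it under the rule. RNU2-1 and 10 further copies named U2 encode the U2 small nuclear RNA, the part of the spliceosome that pairs with the branch site of introns. They lie in a tandem array at chr17:43233787-43300231 (GRCh38, minus strand), and all 11 have the same 191 bases. The capitals mark the stretch that pairs with the branch site.
U2 snRNA, all 11 copies: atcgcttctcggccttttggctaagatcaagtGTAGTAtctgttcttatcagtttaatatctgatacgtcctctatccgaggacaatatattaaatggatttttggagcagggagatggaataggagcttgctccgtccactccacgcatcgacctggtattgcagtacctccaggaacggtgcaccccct
With 1 distinct sequence among them, no read inside a copy can be placed in 1 copy rather than another, and each copy carried the same estimated count. For each copy it was 0.39, 0.45 and 0.33 in the wild-type libraries and 1.29, 0.64 and 0.5 in the knockout libraries. Rounding turned the first 3 into 0 and the others into 1, which alone put the 11 copies among the knockout-only genes. Summed over the copies, the estimate was 4.29, 4.95 and 3.63 in the wild type and 14.19, 7.04 and 5.5 in the knockout. As a level this was 0.244 ± 0.0295 CPM against 0.49 ± 0.233 CPM (SD, n = 3 each), and the first knockout library stood above the other two. These 11 were the only knockout-only genes with any wild-type value above 0 before rounding. Without rounding, 185 genes met the rule, and 184 knockout-only genes remained when the U2 copies were set aside.

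Counts of the knockout-only genes were low. Together they held 537, 580 and 550 counts in knockout libraries 1, 2 and 3 (28.5, 33.5 and 31.0 CPM), or 0.00314% of all knockout counts. The median gene had a total of 6 counts over the 3 libraries, and totals ran from 3 to 149 with 32 as the second highest. At the lower edge, 29 genes had exactly 3 counts, 1 in each library. A total of 10 or more was reached by 52 genes, a total of 20 or more by 10, and 3 or more counts in each library by 18. In 150 genes at least 1 library held a single count, and in 63 genes 1 library held more counts than the other two together. The highest count was in knockout 1 for 51 genes, in knockout 2 for 49 and in knockout 3 for 35, with ties for 60. The median gene had a mean of 0.113 CPM, and 2 genes reached 0.5 CPM.

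**Figure D1:**
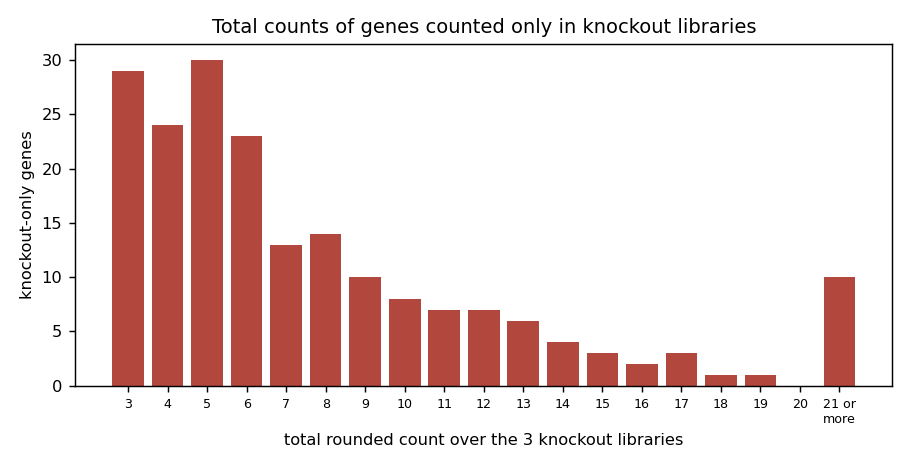
Number of knockout-only genes (y axis) by total rounded count over the 3 knockout libraries (x axis); each bar is a whole-number total, and the last bar pools totals of 21 or more. Of 195 genes, 83 had a total of 5 or fewer and 10 fell in the last bar.

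Because the wild type was at 0, knockout levels can only be set against a floor. With a floor of 3 counts over the 3 wild-type libraries (0.057 CPM), 166 genes were above it, at a median of 2.28-fold the floor. The other 29 were at the floor and have no fold. This floor covers counting error in the wild type only. The knockout counts carry their own error and were selected by the rule, so these ratios are not lower bounds of a change. Just outside the rule were 201 genes counted in every knockout library with a single wild-type count and 700 genes counted in 2 knockout libraries with none in the wild type. LINC02392, for example, had 13, 13 and 9 knockout counts and was kept out by 1 count in wild-type 1. SELENOP, which encodes the plasma selenium carrier selenoprotein P, had 1, 8 and 22 knockout counts and 1 count in wild-type 3. DNAAF4-CCPG1, a gene model that joins a pair of neighbouring genes, had 0, 147 and 23 knockout counts. Just inside were genes such as MYH8, UPB1 and PSG1, with 1 count in each knockout library. Leaving out 1 library and asking the same of the other 5 gave 358, 343 and 357 genes without wild-type 1, 2 and 3, and 396, 435 and 454 without knockout 1, 2 and 3.

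The gene with the most counts was ENSG00000284554, a protein-coding model at chr22:39014363-39033276 (plus strand) whose span covers APOBEC3C and APOBEC3D. These genes encode cytidine deaminases that restrict retroviruses and retroelements. The model had 17, 64 and 68 counts in knockout libraries 1 to 3 (0.903, 3.7 and 3.84 CPM), pooled 48.6-fold the wild-type floor. It carried 8.94% of all counts of the knockout-only genes. Knockout 1 was far lower than the other two. A stretch of 2121 bases, the full length of its exons, matched an APOBEC3D transcript at an identity that rounds to 100%. The counts of the model were fractional before rounding.

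APOBEC3D measured 8.29, 7.86 and 8.14 CPM in the wild type and 5.53, 4.68 and 2.43 CPM in the knockout. It was lower in all 3 knockout libraries (log2 fold change -0.94, SE 0.22, edgeR adjusted p = 0.00248). With the estimates of APOBEC3D and the model summed before rounding, the level was 8.27, 7.84 and 8.12 CPM in the wild type and 6.4, 8.34 and 6.3 CPM in the knockout. The groups then overlapped, with means of 8.08 ± 0.218 and 7.01 ± 1.15 CPM (SD, n = 3 each). APOBEC3C did not pass the test (log2 fold change 0.06, SE 0.1, edgeR adjusted p = 0.659). Of the nearby family members, APOBEC3F did not pass (log2 fold change 0.25, SE 0.12, edgeR adjusted p = 0.108), APOBEC3B was lower (log2 fold change -0.44, SE 0.082, edgeR adjusted p = 0.000225), as was APOBEC3G (log2 fold change -0.63, SE 0.089, edgeR adjusted p = 1.06e-05).

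**Figure D2:**
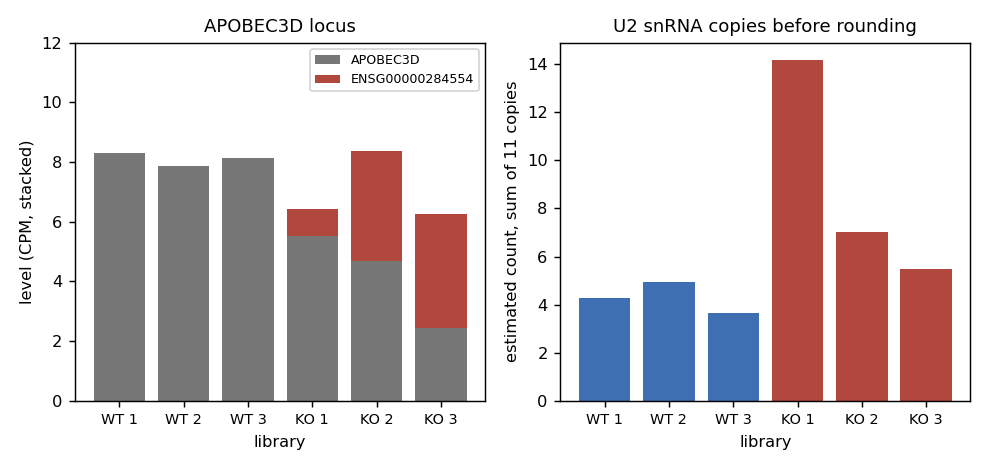
Left, level in CPM (y axis) of APOBEC3D and, stacked on it, of ENSG00000284554 in each library (x axis; WT wild type, KO knockout). Right, estimated count before rounding summed over the 11 U2 copies in each library; knockout 1, at 14.19, is the tallest bar.

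Sequence shared with a well counted gene was found for other knockout-only genes too. A stretch of at least 150 bases at 98% identity or more to a transcript of a tested gene was present in 30 of the 195 (15.4%), on the same strand in 14 and on the opposite strand in 16. Among the 64 wild-type-only genes it was present in 12 (18.8%). Of those 30, 22 had a fractional value, as did 25 of the remaining genes. ENSG00000285897, a model on chromosome 17 with 7, 5 and 4 counts, shares exons with SUPT4H1, a transcription elongation factor, and RNF43, a ubiquitin ligase that removes WNT receptors. RNF43 measured 0.47, 0.217 and 0.64 CPM in the wild type and 2.34, 1.96 and 2.03 CPM in the knockout, and was higher in every knockout library (log2 fold change 2.25, SE 0.42, edgeR adjusted p = 0.000195), while SUPT4H1 did not pass (log2 fold change -0.02, SE 0.056, edgeR adjusted p = 0.799). PPP4R1L, a pseudogene with 5, 5 and 7 counts, shares exons with the lncRNA ENSG00000291067, which was higher in the knockout (log2 fold change 0.49, SE 0.11, edgeR adjusted p = 0.00135). SPATA31A1, of a testis gene family with near-identical copies, had no stretch of that length and identity to a tested gene. Its 7, 10 and 7 counts were fractional before rounding, so its own count is uncertain. The same holds for SIGLEC14, a sialic acid receptor of myeloid cells with a near-identical neighbour (3, 7 and 5 counts). The tested gene nearest to SPATA31A1, CNTNAP3, was lower in the knockout (log2 fold change -0.6, SE 0.13, edgeR adjusted p = 0.000626). SPACA6, nearest to SIGLEC14, did not pass (log2 fold change -0.48, SE 0.21, edgeR adjusted p = 0.0688), but did without knockout 3 or wild-type 1 (edgeR adjusted p = 0.0475 and 0.0481).

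By annotated class, 75 knockout-only genes were protein-coding, 75 were lncRNAs, 31 were pseudogenes, 11 were snRNAs (the U2 copies) and 3 were unclassified transcripts awaiting experimental evidence (TEC). Without the U2 copies, protein-coding genes made up 40.8% of 184, lncRNAs 40.8% and pseudogenes 16.8%. Other genes with a count that failed the filter were 27.9% protein-coding, 48.1% lncRNA and 19.7% pseudogene (n = 13841), and tested genes were 84.6% protein-coding (n = 15960). Of the wild-type-only genes with an annotation, 29.0% were protein-coding and 56.5% lncRNA (n = 62). The protein-coding share of knockout-only genes thus lay between that of the other weakly counted genes and that of tested genes. Among genes with a total of 10 or more it was 48.1%, and among those with 3 or more counts in each library it was 55.6%. The median exonic length was 1862 bases without the U2 copies. It was 1214 for wild-type-only genes, 1545 for other weakly counted genes and 5018 for tested genes. The rule asks for a count in every knockout library, which other weakly counted genes need not have, so these sets were not chosen alike.

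**Figure D3:**
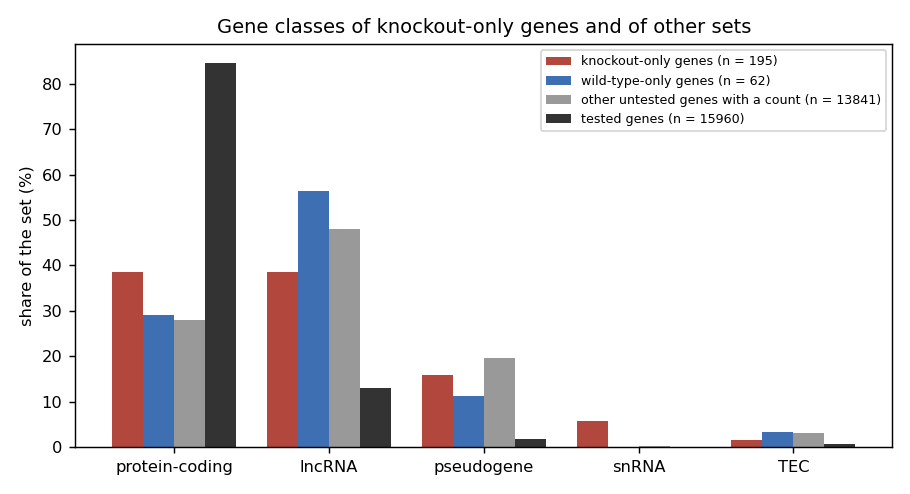
Share of each set in percent (y axis) by annotated gene class (x axis) for knockout-only genes, wild-type-only genes, other untested genes with a count and tested genes. Knockout-only genes are 38.5% protein-coding and 38.5% lncRNA, and the snRNA bar is the 11 U2 copies.

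Among protein-coding genes, XIRP1 came next after the APOBEC3 model by count. It encodes Xin, an actin-binding repeat protein of striated muscle. XIRP1 had 20, 7 and 5 counts (1.06, 0.405 and 0.282 CPM), pooled 10.4-fold the wild-type floor. Knockout 1 held 62.5% of its counts. Its nearest tested gene, CSRNP1, a nuclear protein first described as induced by AXIN1, lies 28648 bases away and was higher in the knockout (log2 fold change 1.22, SE 0.075, edgeR adjusted p = 2.39e-09). CX3CR1, the fractalkine receptor of leukocytes, lies in the same 98526-base stretch of chromosome 3 as XIRP1 and had 2, 6 and 1 counts. Its nearest tested gene, SLC25A38, a mitochondrial carrier, lies 101635 bases away and was higher (log2 fold change 0.28, SE 0.074, edgeR adjusted p = 0.00468).

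Genes of the nervous and sensory systems followed, a grouping made after their values were seen. TAS2R1, a bitter taste receptor, had 6, 11 and 4 counts, and its nearest tested gene SEMA5A, a semaphorin, was higher in the knockout (log2 fold change 1.01, SE 0.29, edgeR adjusted p = 0.00843). PDYN, the precursor of dynorphin opioid peptides, had 10, 2 and 9 counts, and EPHA5, an ephrin receptor kinase of neurons, had 14, 2 and 5. NEUROG3, the transcription factor that starts the endocrine lineage of the pancreas, had 3, 2 and 11. In these genes the libraries differed by several counts and no library was highest in all. SYT2, a calcium sensor of synaptic vesicles, had 1, 2 and 11 counts, but its exons overlap PPP1R12B on the opposite strand, and without a known strand setting their reads cannot be told apart. ADARB2, a brain relative of the RNA-editing deaminases, had 4, 5 and 4, and its nearest tested gene WDR37 was higher (log2 fold change 0.62, SE 0.11, edgeR adjusted p = 8.52e-05). The tested genes nearest to PDYN, EPHA5 and NEUROG3, namely SIRPA, CENPC and FAM241B, did not pass (log2 fold changes 0.03, -0.17 and -0.05, edgeR adjusted p = 0.81, 0.188 and 0.882), nor did PPP1R12B (log2 fold change -0.13, SE 0.11, edgeR adjusted p = 0.356).

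Immune and secreted proteins were also present, again grouped after their values were seen. RNASE7, an antimicrobial ribonuclease of skin, had 3, 2 and 10 counts and lies in an intron of NDRG2 on the opposite strand, which was lower in the knockout (log2 fold change -0.99, SE 0.19, edgeR adjusted p = 0.000283). ITIH3, a liver-made protein that binds hyaluronan, had 1, 11 and 2 counts, 78.6% of them in knockout 2. CLEC4M, a C-type lectin of liver and lymph node endothelium, had 5, 4 and 4. OSM, the cytokine oncostatin M, had 3, 8 and 1 counts and lies 16070 bases from LIF, a cytokine of the same family that was higher in the knockout (log2 fold change 0.6, SE 0.1, edgeR adjusted p = 0.00104). IL17REL, a relative of interleukin 17 receptors, had 2, 6 and 3 counts, and its nearest tested gene PIM3, a kinase, was higher (log2 fold change 0.75, SE 0.064, edgeR adjusted p = 2.17e-08). FUT7, which makes selectin ligands in leukocytes, had 5, 5 and 3. PP2D1, named here for its level and not for an immune or secreted role, had 11, 2 and 4. It encodes a protein with a phosphatase-like domain, and its exons overlap RAB5A on the opposite strand. RAB5A, an endosomal GTPase, was higher (log2 fold change 0.4, SE 0.07, edgeR adjusted p = 0.000104). The genes nearest to ITIH3 and CLEC4M, which are ITIH4 and EVI5L, did not pass (log2 fold changes 0.64 and 0.03, edgeR adjusted p = 0.174 and 0.826). LINC02908, which overlaps FUT7 on the opposite strand, did not pass either (log2 fold change 1.25, SE 0.57, edgeR adjusted p = 0.0876), but did without wild-type 1 (log2 fold change 2.17, edgeR adjusted p = 0.0186).

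**Figure D4:**
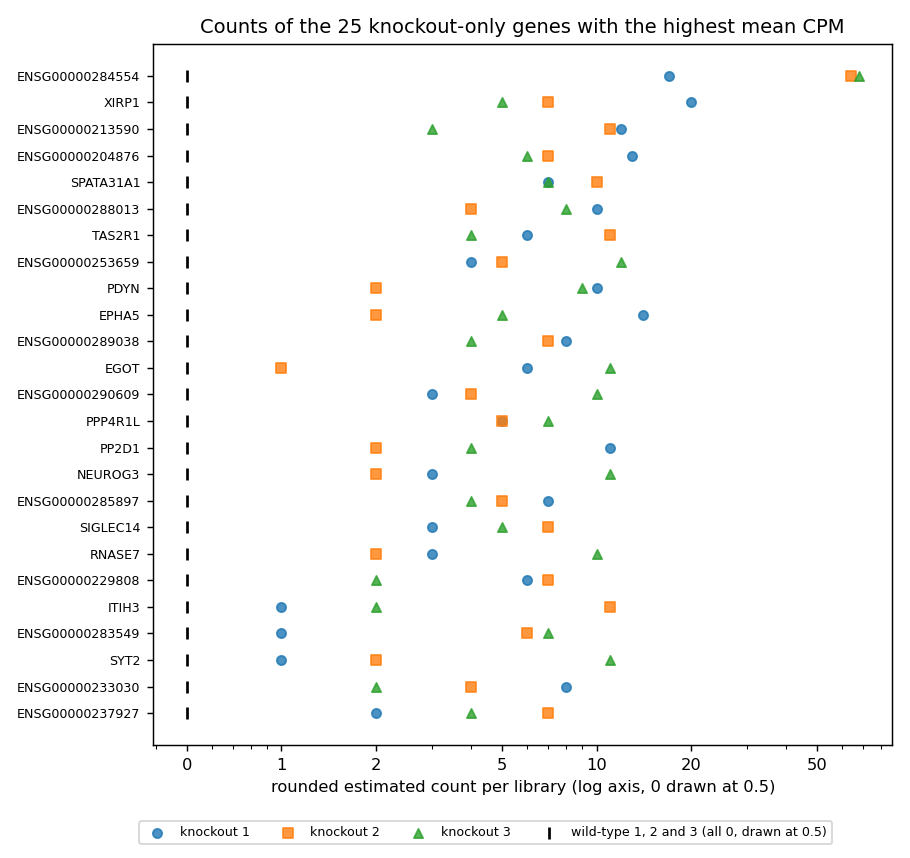
Rounded estimated count in each library (x axis, log scale with 0 drawn at 0.5) of the 25 knockout-only genes with the highest mean CPM (y axis); circles, squares and triangles are knockout 1, 2 and 3, and black ticks are the wild-type libraries. Most genes lie between 1 and 20 counts, the library with the highest count differs from gene to gene, and ENSG00000284554 stands apart with 64 and 68 counts in knockout 2 and 3.

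Among lncRNAs and pseudogenes, the highest totals belonged to ENSG00000213590, a processed pseudogene on chromosome 9 with 12, 11 and 3 counts, and to the lncRNA ENSG00000204876 on chromosome 7 with 13, 7 and 6. The lncRNAs ENSG00000288013 (10, 4 and 8 counts), ENSG00000253659 (4, 5 and 12) and ENSG00000290609 (3, 4 and 10) lie outside tested genes. EGOT, an antisense lncRNA in an intron of ITPR1, had 6, 1 and 11 counts, and ITPR1 did not pass the test (log2 fold change -0.09, SE 0.12, edgeR adjusted p = 0.571). ENSG00000289038 had 8, 7 and 4 counts and overlaps exons of YIPF6 on the opposite strand, which was higher in the knockout (log2 fold change 0.35, SE 0.065, edgeR adjusted p = 0.000179). ENSG00000229808, a pseudogene in an intron of ATF6, had 6, 7 and 2 counts and ENSG00000283549, a lncRNA that shares exons with tested genes, had 1, 6 and 7. Per kilobase of exon, the highest mean knockout levels were 1.33 CPM per kb for ENSG00000284554, 0.516 for ENSG00000289038 and 0.476 for ENSG00000258656, against a median of 0.0751 over the 195.

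Of the pseudogenes, 18 are named after a gene that was tested, and these name 17 distinct parents. Of the parents, 9 were lower in the knockout, 3 were higher and 5 did not pass the test, while 20.7% of all tested genes were lower and 20.5% higher. GAPDH, the glycolytic enzyme, was lower (log2 fold change -0.48, SE 0.05, edgeR adjusted p = 1.91e-07), and its copies GAPDHP72 and GAPDHP43 had 1, 4 and 1 counts and 2, 1 and 1. RPL7, of the large ribosomal subunit, was also lower (log2 fold change -0.35, SE 0.05, edgeR adjusted p = 1.22e-05), with 2, 1 and 1 counts for RPL7P22. OGFOD1, an oxygenase that hydroxylates a ribosomal protein, was higher (log2 fold change 0.29, SE 0.057, edgeR adjusted p = 0.000358), and OGFOD1P1 had 1, 2 and 8 counts. The calls of the parents POLR2M and MARK2 (higher) and PARK7 (lower) were lost when single libraries were left out. POLR2M lost its call without knockout 1 or 3 or wild-type 3 (edgeR adjusted p = 0.0807, 0.0946 and 0.16) and MARK2 without any library but wild-type 3 (edgeR adjusted p = 0.0536 to 0.173). PARK7 lost its call without knockout 1, 2 or 3 or wild-type 2 (edgeR adjusted p = 0.0755 to 0.159). The lower parents CENPN, EBAG9, GRAMD4 and NDUFB4 were not followed with libraries left out. EBAG9 passed narrowly with all libraries (edgeR adjusted p = 0.0424).

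Of all listed genes 0.309% were knockout-only, and of genes with a count 0.643%. The marker lists of other cell types are short, so that 1 gene moves their share by several percent. Of 32 leukocyte markers, CD3D (1, 3 and 1 counts), a chain of the T cell receptor complex, and KLRD1 (1, 2 and 4), a receptor of natural killer cells, were knockout-only (6.25% of the list), while CD3E, CD3G, CD2, CD8B and MS4A1 were among those at 0 in all libraries. Their summed level was 41.6 to 48.4 CPM in the wild type and 49.1 to 52.5 CPM in the knockout. Of the 6 tested leukocyte markers, 1 was higher and 1 lower, the integrin subunit ITGAM (log2 fold change 1.67, SE 0.25, edgeR adjusted p = 3.55e-05) and the actin regulator CORO1A (log2 fold change -0.5, SE 0.13, edgeR adjusted p = 0.00382). Of 28 neuron markers, CHGA, a granule protein of neuroendocrine cells, was knockout-only (1, 2 and 2 counts, 3.57% of the list). The list's sum was 149 to 164 CPM in the wild type and 128 to 142 CPM in the knockout. Most of this sum was NEFL, with means of 113 and 76.9 CPM. Of the 13 tested neuron markers, 4 were higher and 1 lower. Of 21 muscle markers, MYH1, a fast myosin heavy chain, was knockout-only (3, 1 and 1 counts, 4.76% of the list), with sums of 31.5 to 33.6 CPM against 22.7 to 32.1 CPM. Most of this sum was TNNT1, with means of 29.8 CPM in the wild type and 21.6 CPM in the knockout. TTN stood at 0.584, 0.462 and 6.32 CPM in knockout 1, 2 and 3. These sums therefore describe few genes of the list. No erythroid, germ cell, hepatocyte, keratinocyte, epithelial, fibroblast, endothelial or melanocyte marker from these lists was knockout-only. The melanocyte markers summed to 793 to 820 CPM in the wild type and 592 to 659 CPM in the knockout, with TYR at 0. In bulk RNA, fewer cells of a type and less RNA per cell cannot be told apart.

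Shares of gene families are read beside the 0.309% of all listed genes. Of 870 listed olfactory receptor genes, 129 had a count, and 2 were knockout-only (0.23%), OR8B5P with 3, 2 and 5 counts and OR10AC1 with 2, 4 and 1. Zinc finger (ZNF) genes gave 2 of 690 listed (0.29%), ZNF705A and ZNF300P1, and solute carriers gave 2 of 515 (0.388%), the amino acid transporter family member SLC6A18 (1, 1 and 6) and the zinc transporter SLC39A2 (1, 3 and 1). These shares are near that of all listed genes, many of which had no count. Of the genes with a count, the shares were 1.55% for olfactory receptors, 0.331% for ZNF genes and 0.517% for solute carriers. The share over all genes with a count was 0.643%. With 2 genes in each family, single genes move these shares. Of the 39 cytokine and chemokine genes listed, IL36B, an interleukin of the skin, was knockout-only (2, 1 and 2 counts, 2.56% of the list). That share rests on 1 gene. Of the 29 tested, 24 were higher in the knockout and 2 lower. No heat shock gene was knockout-only, and 18 of the 25 tested were higher with a median log2 fold change of 0.71. Over all tested genes, 41.2% passed in either direction, 20.5% higher and 20.7% lower. No HOX, keratin, protocadherin, cancer testis antigen, microRNA, small nucleolar RNA, or immunoglobulin or T cell receptor segment gene was knockout-only.

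The knockout-only genes were spread over the genome. Chromosome 17 held 23, of which 11 were the U2 copies, and its share without them was 6.52%, against 5.48% of other weakly counted genes. Chromosome 22 held 9 (4.89% against 2.49%), chromosome 5 held 13 (7.07% against 4.67%), and chromosome 15 held 2 (1.09% against 4.13%). None lay on chromosomes 18, 21 or Y or in the mitochondrial genome. Apart from the U2 array, 6 pairs lay within 100 kb of each other, among them MYH8 and MYH1, neighbouring myosin heavy chain genes of skeletal muscle. MYH8 had 1, 1 and 1 counts, and both overlap the antisense transcript MYHAS, which did not pass the test (log2 fold change -0.04, SE 0.096, edgeR adjusted p = 0.774). SLC39A2 and RNASE7 were another pair, as were the testis gene ADAD2 and WFDC1, a secreted protein, with 1, 1 and 2 counts and 1, 2 and 2. Within 1 Mb of the edited locus lay ENSG00000235296 (3, 2 and 1 counts, 101339 bases from DUS1L) and ENSG00000278964 (1, 5 and 2, 296462 bases away). ENSG00000235296 overlaps PYCR1, a proline synthesis enzyme on the other strand, which was higher in the knockout (log2 fold change 0.45, SE 0.082, edgeR adjusted p = 0.00026).

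**Figure D5:**
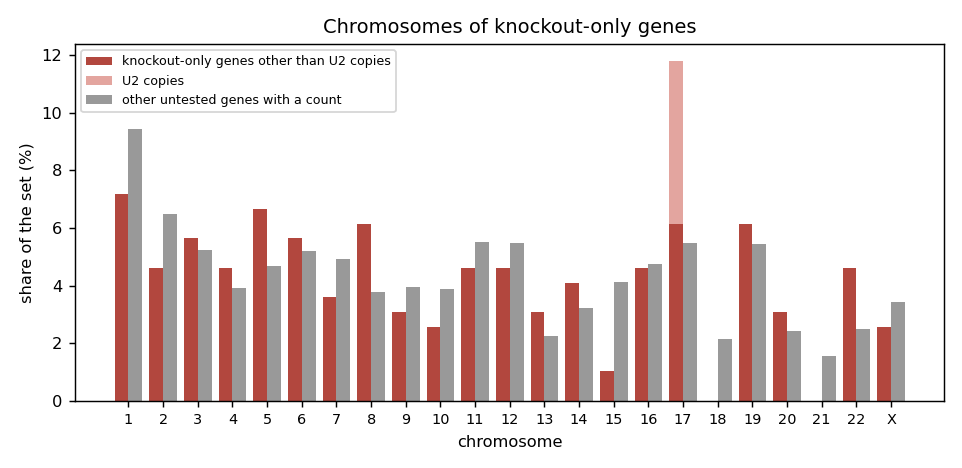
Share in percent (y axis) of 195 knockout-only genes and of other untested genes with a count on each chromosome (x axis). The pale part of the bar for chromosome 17 is the 11 U2 copies, and chromosomes 18 and 21 hold no knockout-only gene.

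Most knockout-only genes, the U2 copies included, did not overlap a tested gene, and neither did most other weakly counted genes. Of the 195, 126 (64.6%) lay outside every tested gene, 8 shared exons with one on the same strand, 28 had exons that overlap one on the opposite strand, 10 lay in an intron on the same strand and 23 in an intron on the opposite strand. Of other weakly counted genes, 57.6% lay outside tested genes. Of 78 tested genes that overlap a knockout-only gene, 20 were higher and 11 lower in the knockout. Taken with those within 100 kb, 144 of 617 were higher (23.3%) and 127 lower (20.6%), beside 20.5% and 20.7% of all tested genes, with a median log2 fold change of 0.014 against -0.004. These neighbours were measured in the contrast that chose the knockout-only genes, and their counts are given as description.

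Some tested genes ended at most 50 kb upstream of a knockout-only gene on the same strand, with no other gene between. Reads past such an end could run into the knockout-only gene only if they extend that far. Of 18 such upstream genes, 8 were higher and 5 lower in the knockout (44.4% and 27.8%), beside 22.9% and 22.1% of 1316 genes upstream of other weakly counted genes. TNFAIP2, a gene induced by tumour necrosis factor, measured 55.7, 62.7 and 66.1 CPM in the wild type and 133, 119 and 116 CPM in the knockout, with no overlap between the groups (log2 fold change 1, SE 0.07, edgeR adjusted p = 1.26e-09). It ends 2236 bases before the pseudogene NDUFB4P11, which had 3, 2 and 2 counts. DOHH, the deoxyhypusine hydroxylase (log2 fold change 0.63, SE 0.081, edgeR adjusted p = 3.34e-06), ends 7380 bases before SMIM44 (1, 3 and 1 counts). The other genes called higher were TRAF2, GUSBP11, KIAA1671, SPR, GABARAPL1 and TTC27, with log2 fold changes from 0.27 to 0.43, upstream of ENSG00000213590, DRICH1, CRYBB3, EMX1, KLRD1 and LINC00486. Those called lower were TMEM98, DDAH2, METTL17, MPST and WDR13, from -0.63 to -0.27, upstream of SPACA3, LY6G6C, SLC39A2, ENSG00000287236 and VN1R110P. KIAA1671 lost its call without knockout 2 or 3 or wild-type 1 (edgeR adjusted p = 0.0929, 0.0813 and 0.102), GUSBP11 without knockout 3 or wild-type 2 (edgeR adjusted p = 0.0771 and 0.11), and DDAH2 without wild-type 3 (edgeR adjusted p = 0.06). Whether reads past a gene's end gave the counts was not tested.

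Promoters were searched because heat shock and cytokine genes were higher in the knockout. The heat shock element core GAANNTTC and the AP-1 site TGANTCA were looked for on both strands, from 250 bases before to 50 bases after the start given by RefSeq (GRCh38.p14). A RefSeq promoter was found for 66 of 186 symbols. The heat shock core was in 2 of the 66 (3.03%) and in 6.87% of all 27305 promoters. The AP-1 site was in 10 of the 66 (15.2%: XIRP1, RNASE7, ZNF705A, DRICH1, LINC02009, SPACA3, LINC00486, CD3D, MYH1 and FRMPD2) and in 7.76% of all promoters. XIRP1 and SPACA3, a sperm acrosome protein with 3, 2 and 4 counts, held both, and both are shown, with the motifs in capitals.
XIRP1, chr3:39192546-39192845, minus strand: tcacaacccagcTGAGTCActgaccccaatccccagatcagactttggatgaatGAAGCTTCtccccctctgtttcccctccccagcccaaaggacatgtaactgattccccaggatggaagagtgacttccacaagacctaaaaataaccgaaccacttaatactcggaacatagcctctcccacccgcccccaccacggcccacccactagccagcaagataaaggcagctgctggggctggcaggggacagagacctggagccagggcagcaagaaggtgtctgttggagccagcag
SPACA3, chr17:32992601-32992900, plus strand: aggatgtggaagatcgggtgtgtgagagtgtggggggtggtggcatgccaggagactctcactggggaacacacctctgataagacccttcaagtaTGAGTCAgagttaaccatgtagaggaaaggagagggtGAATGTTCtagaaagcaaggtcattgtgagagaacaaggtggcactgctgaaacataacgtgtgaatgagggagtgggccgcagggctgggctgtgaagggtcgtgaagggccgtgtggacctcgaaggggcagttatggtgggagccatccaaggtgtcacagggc
In XIRP1 the AP-1 match lies 238 bases and the heat shock core 196 bases before the start, and in SPACA3 they lie 154 and 117 bases before it. The SPACA3 start used here lies inside the counted gene, which spans chr17:32970376-32997877. Whether its counts came from that start was not tested. A match is a run of letters and not a bound site.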

How the data were processed

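RNA-seq of A375 cells comprised 3 wild-type and 3 DUS1L knockout libraries. Paired-end sequencing on a BGISEQ-500 is given per the labels. The values are expected counts per gene as deposited by the authors, with no normalization recorded, from reads placed on GRCh38 (hg38) according to the submitters' processing notes. The aligner, counting tool and strand setting, and the release of the annotation, are not given in the sources used here. In a library, 23.6% to 24.8% of genes with a count had a fractional value.

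Estimated counts were rounded to whole numbers, with 0.5 rounded up. The 195 genes, gene lists and tests were chosen with earlier results of these data known. Identifiers were matched to GENCODE 44 (62541 of 63086, all 195 members). The genotypes were compared with edgeR 4.0.16 (R 4.3.3), using the quasi-likelihood test with robust dispersions, TMM scaling, filterByExpr with a minimum count of 10 and Benjamini-Hochberg adjustment over 16046 genes at 0.05. CPM uses the scaled library sizes. DESeq2 1.42.0 was an alternative, and the fit was tested on simulated data. Shared sequence was searched with BLAST 2.17.0. Named genes were the 15 protein-coding and 10 other members with the highest mean CPM, the member that passed the filter, up to 4 per list or family, members within 100 kb of each other, and genes at the edge of the rule, with their overlapping or nearest tested genes. Others were named after their values were seen. Single counts carry wide counting error, and p-values measure only the spread between these libraries.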

Additional observations from a re-analysis of the deposited data

How the results depend on the processing

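The number of knockout-only genes depended most on how many counts were asked for. It was 18 with 3 or more counts in each knockout library, 52 with a total of 10 or more, and 343 to 454 when 1 library was left out, where fewer libraries had to meet the rule. It was 185 with no rounding and 186 when values ending in exactly 0.5 were rounded to the even number, a setting chosen after seeing the data. The protein-coding share, 38.5%, was 55.6% with 3 or more counts in each library, 48.1% with a total of 10 or more (added after seeing the data), and 30.8% to 39.8% with 1 library left out. The median level was 0.108 to 0.114 CPM with 1 knockout library left out, beside 0.113. Within 10 kb, where fewer genes lie, 42 of 161 neighbours were higher (26.1%) and 30 lower (18.6%). Of 13 genes directly upstream within that distance, 7 were higher (53.8%) and 3 lower (23.1%). Over all tested genes, 20.5% were higher and 20.7% lower. With a replicate block, 3122 genes were higher and 3119 lower, against 3288 and 3320 without it, and 134 and 122 neighbours were. The replicate numbers share no stated source, and same-numbered libraries correlated at -0.0293, -0.000881 and 0.0251, so they do not pair the samples. With library size alone as the scaling, 3880 were higher and 2732 lower, and 162 neighbours were higher and 108 lower. Of 54 genes of the tested table followed through every setting but the unfiltered fit, 40 were called. Of their 360 alternative values 337 kept call and direction, and 23 lost the call, all of KIAA1671, GUSBP11, DDAH2, POLR2M, MARK2 and PARK7. Besides left-out libraries, these losses came with DESeq2 for KIAA1671, POLR2M and MARK2 (DESeq2 adjusted p = 0.059, 0.0601 and 0.0672) and, for PARK7, with library size alone and in the block (edgeR adjusted p = 0.176 and 0.0744). Of 126 values of genes not called, 3 became called (SPACA6 and LINC02908) and 6 changed sign (APOBEC3C, EVI5L, FAM241B, MYHAS and SUPT4H1). With a median total of 6 counts, single counts decide membership at this depth.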
